A study of Mus musculus with 2 samples.

Results

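The semaphorins are guidance proteins, plexins and neuropilins are their receptors, and the collapsin response mediators carry their signal inside the growth cone. Their genes were followed in polyadenylated RNA of the mouse midbrain at 12.5 days of gestation. The members were the protein-coding genes of the GENCODE M21 annotation named Sema with a class number and letter, Plxna to Plxnd, Nrp1, Nrp2, Crmp1 or Dpysl, and 36 genes met that rule, which used names alone, among 22028 protein-coding genes and 55536 annotated genes. They comprised 7 secreted class 3 semaphorins, 13 membrane semaphorins of classes 4 to 7, 9 plexins, 2 neuropilins and 5 collapsin response mediators. Both libraries came from healthy embryos of strain B6NCrl, with male and female embryos pooled, and they formed the only group. Replicate 1 was made from the midbrains of 120 embryos and replicate 2 from those of 88. The labels give 10 ng of input RNA per library, priming by oligo-dT, Nextera tagmentation and added ERCC spike-in RNAs. No treatment, mutant or second stage was compared, so every comparison was between members, between the members and other genes, or between the 2 pools. Errors are SDs over the 2 libraries throughout (n = 2). The labels call them biological replicates, and with 1 library a pool no test between the pools was possible.

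Class 3 semaphorins are secreted and usually bind a neuropilin, which holds the ligand, while a plexin of the A group carries the signal across the membrane. Membrane semaphorins bind plexins directly, and several of them also act as receptors. Inside the cell plexins work through small GTPases and through Mical oxidases, and the collapsin response mediators bind tubulin and shift microtubule assembly when kinases phosphorylate them. In the embryonic midbrain these systems are known for steering oculomotor and trochlear axons and dopaminergic axons, and for guiding vessels, and B plexins also act in the neuroepithelium itself.

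The depth was 30274342 expected counts for replicate 1 and 38421860 for replicate 2, with 4.02% of them on spike-ins in replicate 1 and 3.38% in replicate 2. The members drew 166173 of these counts in replicate 1 and 197543 in replicate 2, and no detected member had fewer than 74 in a library. All 6 midbrain markers were found at 1 TPM or more in both libraries, with Otx2 the highest at 145 TPM in replicate 1 and 141 TPM in replicate 2 and En2 the lowest at 1.14 TPM in replicate 1 and 1.64 TPM in replicate 2. The chi-square of the counts between the libraries averaged 8.94 per gene tested, where sampling noise alone gives about 1, so they are distinct libraries. Markers of neighbouring tissue were present too. The 8 markers of mesenchyme and meninges summed to 1020.0 TPM in replicate 1 and 1445 TPM in replicate 2, those of endothelium to 115 TPM in replicate 1 and 130.0 TPM in replicate 2, and those of forebrain to 188 TPM in replicate 1 and 124.5 TPM in replicate 2. In bulk tissue, fewer cells of a type and less RNA per cell cannot be told apart.

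Several members are known for alternative segments that change the protein, and 6 of them are shown because their use could be set side by side in the libraries. They are printed from the GENCODE M21 transcript sequences, in the direction of transcription, with the alternative segment in capitals and 15 bases of the neighbouring coding exons on each side in lower case. Positions are on assembly mm10. The neuropilin Nrp2, a receptor for Sema3f and for vascular growth factors, has 2 optional segments just outside the membrane, at chr1:62786302-62786316 and chr1:62812534-62812584 on the plus strand, of 15 and 51 bases. Both join the same flanking exon sequence. The secreted semaphorin Sema3f has an optional exon of 93 bases at chr9:107691356-107691448 on the minus strand. The membrane semaphorin Sema6d has optional exons of 57 bases at chr2:124660705-124660761 and of 168 bases at chr2:124662204-124662371, both on the plus strand. In Sema5b, a transmembrane semaphorin with thrombospondin repeats, a stretch of 87 bases at chr16:35660071-35660157 on the plus strand is kept in one coding transcript and removed in the other.
Nrp2 15-base segment: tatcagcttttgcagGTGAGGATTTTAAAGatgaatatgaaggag
Nrp2 51-base segment: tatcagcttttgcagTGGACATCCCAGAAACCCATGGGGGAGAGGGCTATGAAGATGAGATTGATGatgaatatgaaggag
Sema3f 93-base segment: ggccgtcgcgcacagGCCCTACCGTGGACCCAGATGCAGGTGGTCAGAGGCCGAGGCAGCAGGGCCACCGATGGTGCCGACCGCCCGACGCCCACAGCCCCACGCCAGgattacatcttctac
Sema6d 57-base segment: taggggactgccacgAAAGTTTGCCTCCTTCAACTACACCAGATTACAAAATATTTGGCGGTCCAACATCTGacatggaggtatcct
Sema6d 168-base segment: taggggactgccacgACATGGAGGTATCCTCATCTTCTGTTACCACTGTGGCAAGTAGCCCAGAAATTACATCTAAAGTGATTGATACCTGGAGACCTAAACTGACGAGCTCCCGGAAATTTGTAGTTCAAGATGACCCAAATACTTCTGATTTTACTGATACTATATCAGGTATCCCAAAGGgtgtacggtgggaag
Sema5b 87-base segment: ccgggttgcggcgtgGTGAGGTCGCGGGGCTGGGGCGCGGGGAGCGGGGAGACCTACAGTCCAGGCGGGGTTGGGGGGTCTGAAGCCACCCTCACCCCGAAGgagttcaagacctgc

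All 6 segments have a length divisible by 3, so that each adds residues without shifting the frame: 5 and 17 in Nrp2, 31 in Sema3f, 19 and 56 in Sema6d and 29 in Sema5b. The share of a segment was taken as the TPM of the coding transcripts that hold it, as a percent of all coding transcripts that span its position. The 15-base segment of Nrp2 was held by 44.3% of this TPM in replicate 1 and 37.5% in replicate 2 (40.9% ± 4.8). The 51-base segment, among the transcripts with the distal tail, was held by 18.1% in replicate 1 and 23.55% in replicate 2. The sets of transcripts differ, so these shares do not rank the 2 segments. Most of the TPM with the 15-base segment came from Nrp2-201, which has the other tail. With the distal tail, Nrp2-203 holds only the 15-base segment and had 0.87 TPM in replicate 1 and 0.28 TPM in replicate 2. Nrp2-202 holds only the 51-base segment and was higher in each library, at 1.26 TPM in replicate 1 and 2.25 TPM in replicate 2. Nrp2-206 holds both.

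Nrp2 transcripts also end in 2 alternative cytoplasmic tails, and the tail encoded by the distal last exon, which ends in a motif for PDZ proteins such as Gipc1, took 58.0% of the coding TPM in replicate 1 and 59.6% in replicate 2. The most abundant Nrp2 transcript was Nrp2-204, with that tail and with neither insert, at 5.75 TPM in replicate 1 and 8.03 TPM in replicate 2. Next came Nrp2-201, with the other tail and the 15-base insert, at 5.10 TPM in replicate 1 and 6.24 TPM in replicate 2. Both tails were thus present in each pool, in nearly the same proportion.

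In Sema3f the 93-base exon was held by 22.1% of the coding TPM in replicate 1 and by 32.3% in replicate 2, so the form without it predominated in both. For Sema6d the 57-base exon was held by 46.8% in replicate 1 and 38.9% in replicate 2, and the 168-base exon by 56.8% in replicate 1 and 45.8% in replicate 2. Both Sema6d exons were more used in replicate 1. The 87-base stretch of Sema5b was held by 27.8% in replicate 1 and 29.3% in replicate 2, which differed less than the shares of the Sema3f and Sema6d exons. These shares are estimates from reads divided among overlapping transcripts, and no counting interval was available for them.

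**Figure D1:**
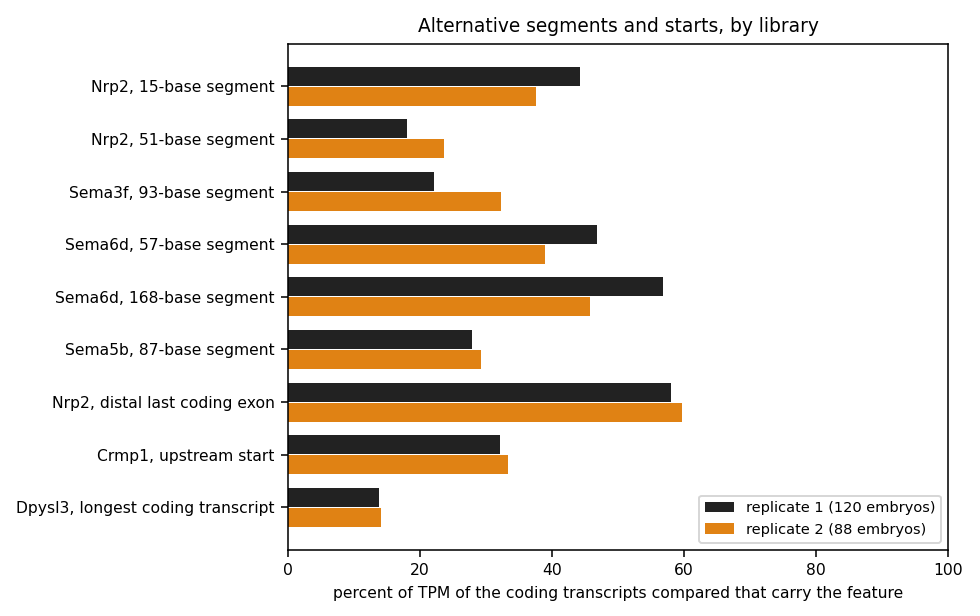
Percent of the TPM of the coding transcripts compared that carries each alternative segment, tail or start (x axis), for 9 features of 6 genes (rows), with 1 bar per library and replicate 1 above replicate 2. The distal tail of Nrp2 (58.0% and 59.6%) and the upstream start of Crmp1 (32.1% and 33.3%) lie close together in the 2 libraries, while the Sema6d exon of 168 bases (56.8% and 45.8%) and the Sema3f exon (22.1% and 32.3%) lie farther apart.

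Crmp1, a collapsin response mediator that acts downstream of Sema3a, has 2 main annotated starts, and the windows just before them are shown because the transcripts they lead to were both abundant. The upstream start leads to Crmp1-202, with 2058 coding bases, and the downstream start to Crmp1-201, with 1716. Crmp1-202 stood at 107 TPM in replicate 1 and 102.4 TPM in replicate 2, and Crmp1-201 at 227 TPM and 205 TPM. The longer form thus made 32.1% of the TPM of this pair in replicate 1 and 33.3% in replicate 2. The RefSeq windows of GRCm38.p6 lie on the plus strand at chr5:37241808-37241939 (132 bases, trimmed where an annotated exon begins) and chr5:37245514-37245763 (250 bases, ending at the base before the start). GC boxes, searched as GGGCGG and its reverse complement CCGCCC with overlaps counted, are in capitals, and the stretches shown hold 3 and 2 of them.
Crmp1 upstream start: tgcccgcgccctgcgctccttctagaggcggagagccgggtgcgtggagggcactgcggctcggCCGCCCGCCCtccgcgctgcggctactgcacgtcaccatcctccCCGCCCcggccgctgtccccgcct
Crmp1 downstream start: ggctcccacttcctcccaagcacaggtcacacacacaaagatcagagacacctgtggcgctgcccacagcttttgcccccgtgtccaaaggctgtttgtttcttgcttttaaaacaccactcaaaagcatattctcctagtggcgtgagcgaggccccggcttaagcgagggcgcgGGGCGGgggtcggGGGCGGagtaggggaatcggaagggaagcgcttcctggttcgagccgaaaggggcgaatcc

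RefSeq promoter windows outside chromosome 18 matched 28 of the 36 members, with 40 windows in all because some genes have several starts. Windows on chromosome 18, which holds Sema6a and Dpysl3, were left out of the member set. They were kept among the windows of protein-coding genes. In the 250 bases before the start, a GC box was found in 30 of 40 member windows (75%), against 42.6% of the 21263 windows of protein-coding genes. TATAAA, searched on both strands, was found in 0 of the 40 member windows, against 11.6% of those of protein-coding genes, and CCAAT or its complement in 17.5%, against 35.4%. Member windows held a median of 14 CG pairs, against 10 in protein-coding genes. Those of Sema3a and Sema3d, with 2 and 4 CG pairs and no GC box, were among the low ones, and that of Sema3c, with 39, was the highest.

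At a limit of 1 TPM in both libraries, 33 of the 36 members were detected, against 59.4% of all protein-coding genes. The 3 below it were Sema3g, Sema7a and Plxnb3. Levels spanned a wide range, from 0.12 TPM in replicate 1 and 0.09 TPM in replicate 2 for Plxnb3 to 695 TPM in replicate 1 and 625 TPM in replicate 2 for Dpysl2. The median member stood at 14.9 TPM, between the median of all protein-coding genes (4.47 TPM) and that of the detected ones (22.2 TPM). Summed TPM of the members was 2409 in replicate 1 and 2277 in replicate 2. The collapsin response mediators made 73.0% ± 0.6 of that sum, the semaphorins 12.6% ± 0.3, the plexins 12.4% ± 0.1 and the neuropilins 1.94% ± 0.25.

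Among the secreted ligands, 6 of 7 class 3 semaphorins passed the limit, and the median of the class was 2.46 TPM. Sema3f, known as a repellent for Nrp2-bearing axons, was the highest at 25.77 TPM in replicate 1 and 23.96 TPM in replicate 2. Sema3c, known as an attractant for dopaminergic axons, followed at 13.1 TPM in replicate 1 and 15.75 TPM in replicate 2. Sema3a, the founding collapsin, had 7.04 TPM in replicate 1 and 9.05 TPM in replicate 2. These 3 genes held most of the class. Sema3b, Sema3d and Sema3e lay between 1.13 and 2.49 TPM in the libraries. Sema3g, known mainly from endothelium, was the lowest, at 0.53 TPM from 44 reads in replicate 1 and 0.83 TPM from 87 reads in replicate 2.

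Among the membrane semaphorins, 12 of 13 passed it, and their median was 13.2 TPM. Sema5b was the highest at 54.9 TPM in replicate 1 and 53.0 TPM in replicate 2. Sema6a, which steers axons through Plxna2 and Plxna4, followed at 47.9 TPM in replicate 1 and 51.4 TPM in replicate 2, and their order held in both libraries. Sema6c came next at 43.4 TPM in replicate 1 and 35.3 TPM in replicate 2, and was higher in replicate 1. Sema4c, a ligand of Plxnb2, had 28.7 TPM in replicate 1 and 27.6 TPM in replicate 2. On coding transcripts only, Sema5b remained the highest, but Sema4c at 26.7 TPM in replicate 1 and 27.2 TPM in replicate 2 lay above Sema6a at 22.03 TPM in replicate 1 and 23.6 TPM in replicate 2 and above Sema6c at 19.6 TPM in replicate 1 and 17.2 TPM in replicate 2. Sema4a, Sema4b and Sema6d lay between 12.6 and 15.9 TPM, and the first 2 of them changed order between the libraries, so they could not be ranked. Sema4g, Sema6b, Sema4f, Sema5a and Sema4d lay between 3.81 and 6.87 TPM. Sema7a, which a glycolipid anchors to the membrane, was the lowest at 0.79 TPM from 30 reads in replicate 1 and 0.50 TPM from 34 reads in replicate 2. Its TPM differed more than its reads: the short transcript Sema7a-202 took 40.5% of its TPM from 1.90 reads in replicate 1, and 10.1% from 0.37 reads in replicate 2.

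Class 3 genes took 17.15% of summed semaphorin TPM in replicate 1 and 18.8% in replicate 2 (18.0% ± 1.2). The rest lay with the membrane classes. Summed over each class, class 6 reached 109.9 TPM in replicate 1 and 105.5 TPM in replicate 2, class 4 reached 76.8 TPM in replicate 1 and 73.1 TPM in replicate 2, and class 5 reached 60.1 TPM in replicate 1 and 58.5 TPM in replicate 2, so their order was the same in both pools. On coding transcripts only, class 4 came first, at 62.3 TPM in replicate 1 and 59.5 TPM in replicate 2, and class 6 second, at 57.2 TPM in replicate 1 and 55.9 TPM in replicate 2.

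The neuropilins were both detected. Nrp1, receptor for Sema3a and for vascular endothelial growth factor, had 26.6 TPM in replicate 1 and 27.7 TPM in replicate 2. Nrp2 had 15.8 TPM in replicate 1 and 20.4 TPM in replicate 2, and lay below Nrp1 in each library. With the older annotation M4 this order held in replicate 1 only, where Nrp2 had 16.6 TPM and Nrp1 16.9 TPM, and it turned in replicate 2, where Nrp2 had 21.4 TPM and Nrp1 17.7 TPM.

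Of the plexins, 8 of 9 passed the limit, and their median was 14.8 TPM. Plxnb2, the receptor for class 4 semaphorins that is needed for neural tube closure in mice, was the highest at 130.0 TPM in replicate 1 and 128 TPM in replicate 2. Plxna1 had 51.5 TPM in replicate 1 and 44.3 TPM in replicate 2, Plxna3 had 42.3 TPM in replicate 1 and 40.2 TPM in replicate 2 and Plxnb1 had 37.9 TPM in replicate 1 and 34.3 TPM in replicate 2, in that order in both pools. This order of the 3 depended on the transcripts counted: on coding ones only, Plxnb1 at 32.7 TPM in replicate 1 and 31.1 TPM in replicate 2 lay above Plxna3 at 22.1 TPM in replicate 1 and 19.1 TPM in replicate 2. With M4, Plxna3 lay above Plxna1 in both libraries. A lower set followed, with Plxna2 at 14.5 TPM in replicate 1 and 15.15 TPM in replicate 2, and Plxnd1, the receptor for Sema3e that is known from vessels, at 11.5 TPM in replicate 1 and 12.5 TPM in replicate 2. Plxnc1, receptor of Sema7a, had 5.38 TPM in replicate 1 and 5.31 TPM in replicate 2 and Plxna4 had 5.12 TPM in replicate 1 and 4.4 TPM in replicate 2, so Plxnc1 lay above Plxna4 in both. Plxnb3, known from oligodendrocytes, had 5 reads in replicate 1 and 10 in replicate 2, none of them assigned to its coding transcript.

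All 5 collapsin response mediators exceeded 100 TPM in both libraries, and Plxnb2 was the only other member to do so. Dpysl2 (CRMP2), the best-known tubulin binder of the family, had 660.2 TPM ± 49.6 and lay at percentile 99.5 of protein-coding genes. Dpysl3 (CRMP4) had 448 TPM in replicate 1 and 431 TPM in replicate 2, and Crmp1 had 347 TPM in replicate 1 and 317 TPM in replicate 2. Dpysl4 (CRMP3) had 162 TPM in replicate 1 and 173 TPM in replicate 2, and Dpysl5 (CRMP5) was the lowest at 117 TPM in replicate 1 and 107 TPM in replicate 2. The order of all 5 was the same in each library. Dpysl3 has a longest coding form, Dpysl3-204, which took 13.7% of the TPM of its 3 coding transcripts in replicate 1 and 14.0% in replicate 2.

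On log2(TPM + 0.1), the median of the collapsin response mediators lay 5.635 above that of the semaphorins in replicate 1 and 5.31 above it in replicate 2, a mean gap of 5.47 ± 0.23. Median plexins and neuropilins lay above the semaphorins by 1.19 in replicate 1 and 1.36 in replicate 2 (1.27 ± 0.12). Both gaps had the same sign in each library. Families overlapped all the same: Plxna4, Plxnc1 and Plxnb3 lay below the median semaphorin (7.42 TPM), and no semaphorin reached the lowest collapsin response mediator.

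**Figure D2:**
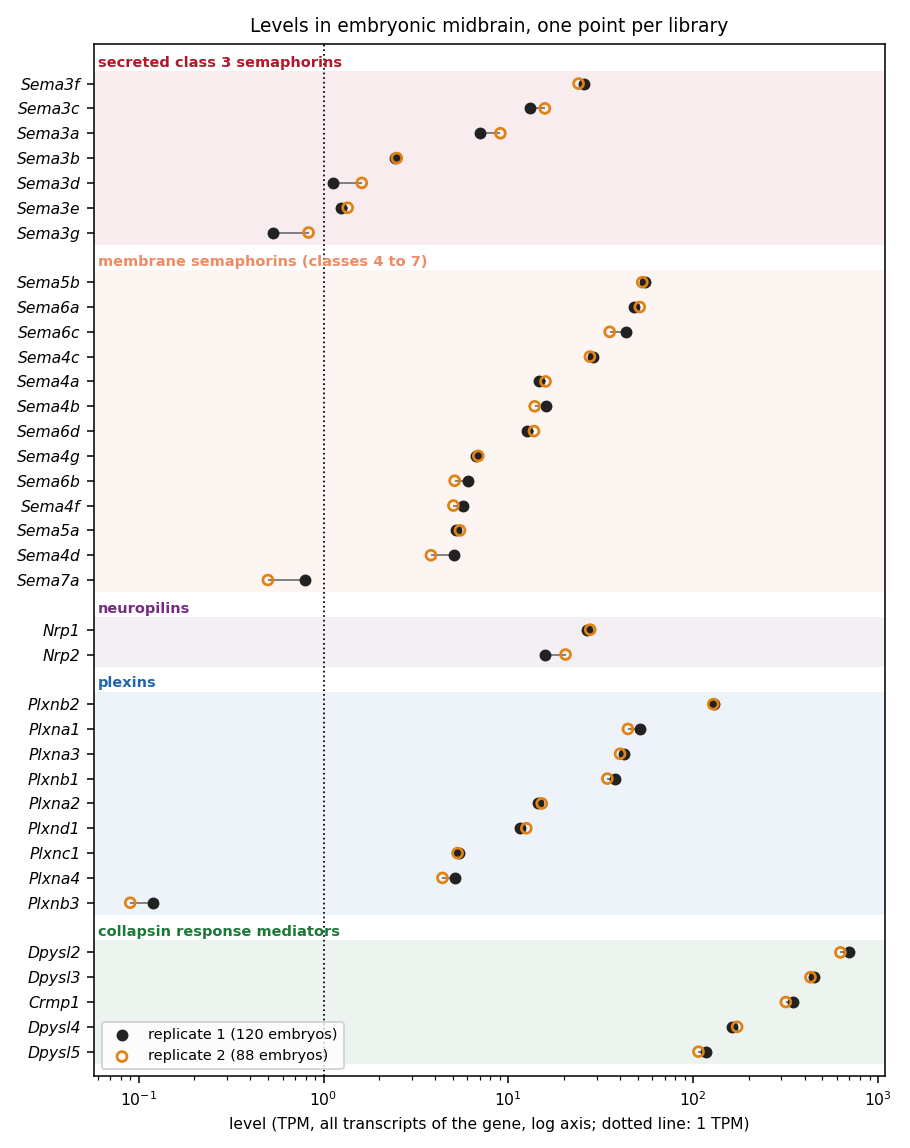
Level of each of the 36 members in TPM (log axis), grouped by family and ordered by mean, with a filled point for replicate 1 and an open one for replicate 2. The 5 collapsin response mediators lie above 100 TPM, and Sema3g, Sema7a and Plxnb3 lie left of the dotted line at 1 TPM in both libraries.

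The level of a gene in TPM adds up all its annotated transcripts, and for these long genes the classes of transcript mattered. The 36 members have 256 annotated transcripts, 115 of them protein coding. Coding transcripts took 88.6% of member TPM in each library and 94.9% of member counts in replicate 1 and 94.65% in replicate 2. The collapsin response mediators weighed most in this, with a mean of 1659 of 1711 TPM in coding transcripts. Coding transcripts held 192.2 of 295.7 TPM in the semaphorins, 187.1 of 291.5 TPM in the plexins and 36.8 of 45.2 TPM in the neuropilins. Transcripts annotated as keeping an intron took 7.15% of member TPM in replicate 1 and 7.63% in replicate 2. They are shorter (median 1034 bases, against 3595 for coding ones), and a read on a short transcript weighs more in TPM.

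Coding transcripts took less than 50% of the TPM in both libraries in 4 members: Sema4g, Sema6a, Sema6c and Plxnb3, the last of which lay below 1 TPM. Sema6a had 46.0% coding TPM in replicate 1 and 45.9% in replicate 2, and its leading transcript was Sema6a-209, which keeps an intron, at 31.2% in replicate 1 and 27.55% in replicate 2. The largest shift in TPM came with Plxnb2. Its processed transcript Plxnb2-205, 834 bases long, took 37.2% of the TPM from 663 of 8887 reads in replicate 1 and 39.1% from 870 of 10620 reads in replicate 2. Coding transcripts of Plxnb2 alone came to 67.5 TPM in replicate 1 and 63.3 TPM in replicate 2, still the highest of the plexins.

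Of the 33 detected members, 12 had no transcript that took 50% of the TPM on average: Nrp2, Plxna3, Plxnb2, Sema3b, Sema3f, Sema4a, Sema4c, Sema4g, Sema5b, Sema6a, Sema6c and Sema6d. In Sema3f the coding transcript Sema3f-201 led at 40.7% in replicate 1 and 44.3% in replicate 2. Sema4c was divided among coding transcripts of equal coding length (2502 bases), led by Sema4c-201 at 34.5% in replicate 1 and 43.3% in replicate 2. Sema6c-201 led its gene at 40.3% in replicate 1 and 37.6% in replicate 2, followed by Sema6c-212, annotated as a target of nonsense-mediated decay, at 22.2% in replicate 1 and 18.4% in replicate 2. At the other end, 11 members had 90% or more of their TPM in coding transcripts in both libraries, among them Dpysl2, Dpysl3, Crmp1, Sema6b and Sema4d.

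The leading transcript differed between the libraries in 4 detected members. For Plxnb2 it was the coding Plxnb2-202 in replicate 1 (44.55%, against 37.4% in replicate 2) and Plxnb2-205 in replicate 2. In Sema6d it was Sema6d-206 in replicate 1 and Sema6d-208 in replicate 2. Sema4a changed between Sema4a-213 and Sema4a-215, whose coding lengths are equal at 2280 bases. Sema3b, with 74 reads in replicate 1 and 112 in replicate 2 over 14 annotated transcripts, was led by Sema3b-208 in replicate 1 and Sema3b-202 in replicate 2. Few reads stood behind this, since Sema3b-208 rested on 4.93 reads in replicate 1 and 4.29 reads in replicate 2.

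**Figure D3:**
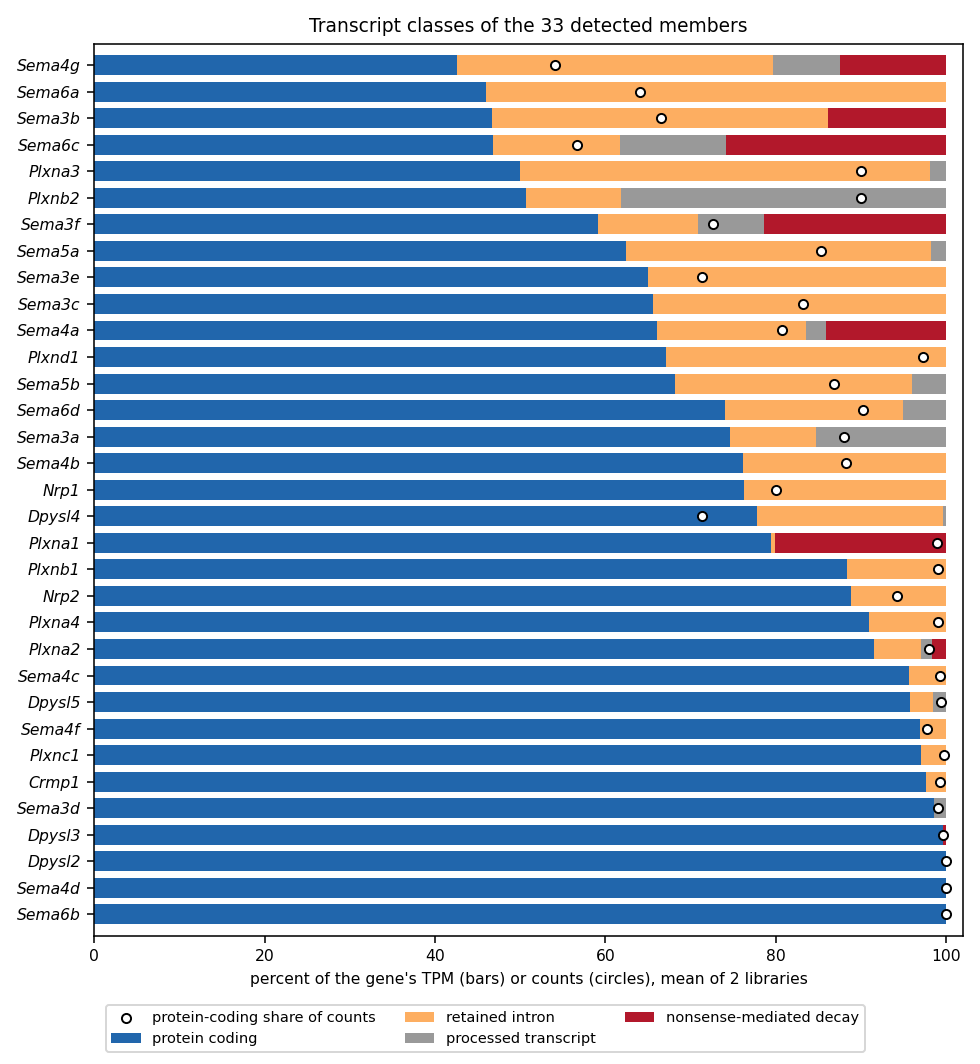
Percent of each detected member's TPM taken by 4 classes of annotated transcript (stacked bars, mean of 2 libraries) and percent of its counts taken by coding transcripts (open circles), ordered by coding TPM share. Plxna3 and Plxnb2 have about as much coding as other TPM but their circles lie near 90% of counts.

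Levels of ligands and receptors were set side by side for 11 pairs known to bind or to act together, as the log2 of receptor TPM over ligand TPM. Receptors stood above their ligands in 7 pairs in both libraries. Plxnd1 over Sema3e gave 3.21 in replicate 1 and 3.21 in replicate 2, Plxnb1 over Sema4d gave 2.91 in replicate 1 and 3.17 in replicate 2, and Plxnc1 over Sema7a gave 2.77 in replicate 1 and 3.41 in replicate 2. For the secreted ligand Sema3a, Nrp1 lay above it by 1.92 in replicate 1 and by 1.61 in replicate 2. Plxnb2 lay above Sema4c by 2.18 in replicate 1 and 2.22 in replicate 2, or by a mean of 1.28 on coding transcripts only.

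The order was the other way round in 4 pairs. Both pairs of Sema6a were so: Plxna2 over Sema6a gave -1.72 in replicate 1 and -1.76 in replicate 2, and Plxna4 over Sema6a gave -3.225 in replicate 1 and -3.545 in replicate 2. On coding transcripts only, these pairs came closer to 0, at means of -0.75 ± 0.07 for Plxna2 and -2.40 ± 0.16 for Plxna4. Plxna3 over Sema5b gave -0.38 in replicate 1 and -0.40 in replicate 2, and a mean of -0.84 ± 0.14 on coding transcripts only. Nrp2 over Sema3f gave -0.70 in replicate 1 and -0.23 in replicate 2, but a mean of 0.12 ± 0.10 on coding transcripts only, so the direction of this pair depended on which transcripts were counted. Such ratios are between RNA levels of a whole tissue and say nothing of which cells hold them.

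**Figure D4:**
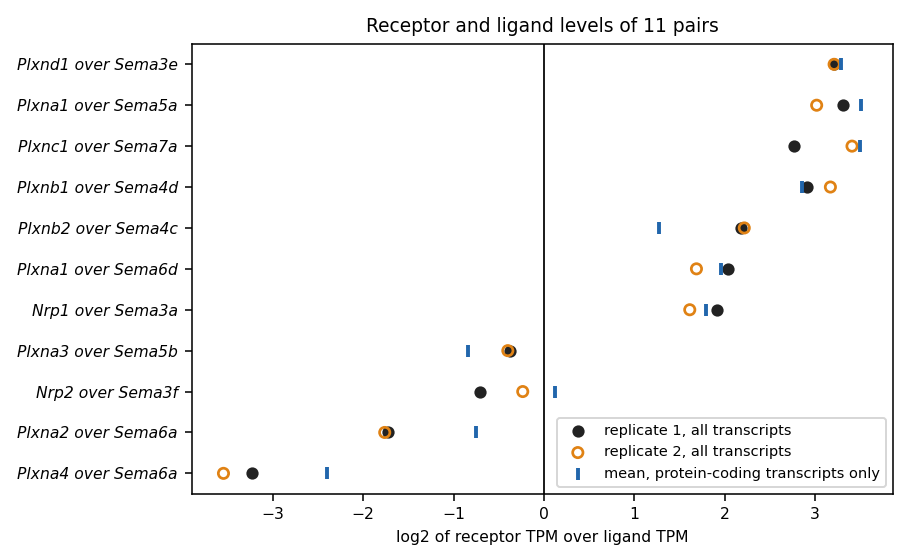
Log2 of receptor TPM over ligand TPM (x axis) for 11 pairs (rows), with a filled point for replicate 1, an open one for replicate 2 and a bar for the mean over protein-coding transcripts only. Pairs right of 0 have more receptor than ligand RNA. Nrp2 over Sema3f is the only pair whose bar lies on the other side of 0 from its points.

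Between the pools, no member (0 of 36) was 2-fold apart with a 95% counting interval clear of equality, against 4.20% of the 19885 genes that reached 10 counts in either library. Ratios are of counts in replicate 1 over replicate 2 after TMM scaling, which sets the bulk of genes equal. At a lower bar, 14 members were higher in replicate 1 beyond counting error, against 17.0% of all genes tested, and 7 were higher in replicate 2, against 15.2%. Counting intervals narrow with depth, so members and genes were also compared at or above a floor of 5 TPM. This floor did not match the members with genes of like level or depth. Of the members at a mean of 5 TPM or more, 12 of 28 were higher in replicate 1, against 22.6% of the 11594 genes that met the floor. In replicate 2 it was 5 of 28, against 17.6%. The median absolute log2 ratio of those members was 0.14, against 0.09 for those genes. Scaling by the ERCC spike-ins instead moved the median of all genes tested to -0.28 and that of the members to -0.215, and the split became 1 member higher in replicate 1 and 26 higher in replicate 2. Every direction given here is therefore relative to the bulk of genes. The intervals cover counting error only and hold no spread between animals or preparations.

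Under TMM scaling, the small differences ran in opposite directions in different families. Among class 3 semaphorins, 4 of 7 were higher in replicate 2 and 0 in replicate 1, and all 7 were higher in replicate 2 with ERCC scaling. Sema3g gave a log2 ratio of -0.61 (interval -1.17 to -0.07), Sema3d -0.43 (-0.75 to -0.11) from 131 reads in replicate 1 and 228 in replicate 2, Sema3a -0.32 (-0.47 to -0.17) and Sema3c -0.18 (-0.29 to -0.07). Nrp2 went the same way, at -0.35 (-0.44 to -0.26) from 1566 reads in replicate 1 and 2584 in replicate 2, while Nrp1 did not differ beyond counting error at -0.03 (-0.12 to 0.07).

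Among the membrane semaphorins, 5 of 13 were higher in replicate 1 and 0 in replicate 2. With ERCC scaling 1 of these 5 stayed higher in replicate 1, Sema6c at 0.084 (0.002 to 0.166), and the other 4 were within counting error, while 6 other members, within counting error under TMM, were higher in replicate 2. Sema6c gave 0.36 (0.28 to 0.45) from 2408 reads in replicate 1 and 2424 in replicate 2, Sema4d 0.35 (0.14 to 0.56) and Sema6b 0.27 (0.07 to 0.47). Of the plexins, 5 of 9 were higher in replicate 1 and 1 in replicate 2. With ERCC scaling 3 of these 5 (Plxna1, Plxnb1 and Plxnb2) turned to higher in replicate 2 and the other 2 were within counting error. Plxna3 led at 0.21 (0.14 to 0.28), and Plxnd1 was the exception at -0.14 (-0.26 to -0.02). Of the collapsin response mediators, 4 of 5 were higher in replicate 1, and all 4 turned to higher in replicate 2 with ERCC scaling. Of all genes tested, 17.0% were higher in replicate 1 and 15.2% in replicate 2. These 5 genes had 8285 to 65151 reads in a library, where counting intervals are narrow. Differences as small as 1.065-fold for Dpysl3 and 1.044-fold for Dpysl4 therefore lay beyond counting error. Dpysl2 gave 0.19 (0.175 to 0.207), and Dpysl4 was higher in replicate 2 at -0.06 (-0.10 to -0.02). The largest of these differences was 1.53-fold, for Sema3g, and it was higher in replicate 2 under both scalings.

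**Figure D5:**
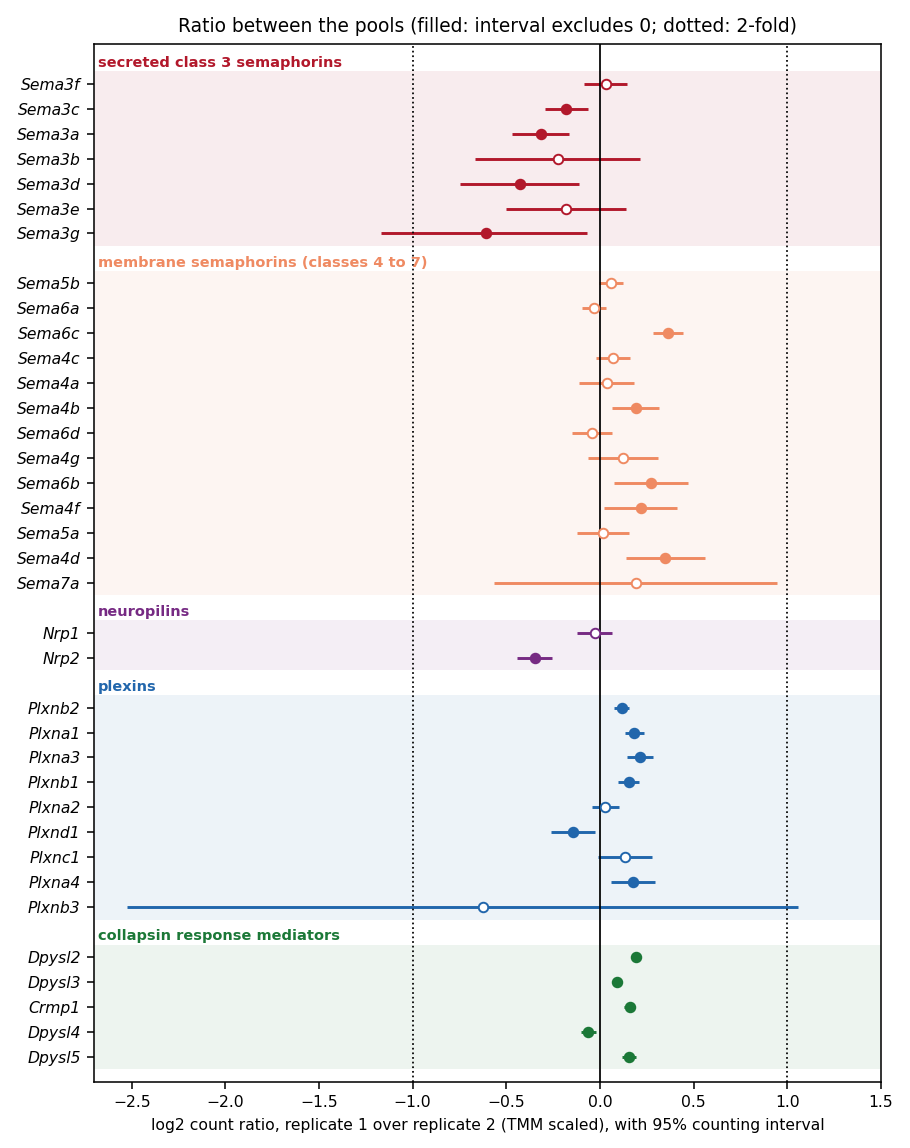
Log2 ratio of counts, replicate 1 over replicate 2 after TMM scaling, with its 95% counting interval, for the 36 members grouped by family. Filled points have an interval that excludes 0, and dotted lines mark 2-fold. Filled class 3 points lie left of 0 (higher in replicate 2) and filled membrane semaphorins right of it, although of these only Sema6c keeps an interval clear of 0 with ERCC scaling, and every point lies within the 2-fold lines.

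Markers of other cell types differed between the pools as well. Of all genes tested, 4.20% were called 2-fold apart. Beyond counting error 17.0% were higher in replicate 1 and 15.2% in replicate 2. The 8 markers of mesenchyme and meninges had a median log2 ratio of -0.39, with 7 higher in replicate 2, and the 7 endothelial markers one of -0.21, with 5 higher in replicate 2 and Kdr higher in replicate 1. Neuronal markers had a median of 0.13, with 5 of 6 higher in replicate 1, and progenitor markers one of 0.06. Of the cartilage markers 4 of 6 were 2-fold higher in replicate 2, namely Col9a1, Matn4, Acan and Matn1, the last of which had 0 reads in replicate 1 and 31 in replicate 2. Of the forebrain markers 3 of 6 were 2-fold higher in replicate 1 (Pax6, Emx1 and Tbr1), and of the floor plate markers Foxa2 and Corin were 2-fold higher in replicate 2. Their part in the differences of the members was not tested.

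The genes that act with these receptors were described from a list of 41 co-receptors, GTPases, exchange factors and kinases. At 1 TPM or more in both libraries 40 were detected, against 59.4% of all protein-coding genes. Cfl1, an actin-severing protein that Limk1 phosphorylates, was the highest at 2421 TPM in replicate 1 and 2499 TPM in replicate 2. Mical2, an oxidase of actin, was the lowest detected at 1.24 TPM in replicate 1 and 1.76 TPM in replicate 2, and Timd2, reported as a receptor of Sema4a, had 0 reads in both. A count of 0 allows up to 0.041 TPM in replicate 1 and 0.031 TPM in replicate 2 for a gene of the members' median effective length. None of the 40 with enough reads differed 2-fold between the pools, against 4.20% of all genes tested. Beyond counting error 12 were higher in replicate 1, against 17.0% of all genes tested, and 10 in replicate 2, against 15.2%. The median log2 ratio of the 40 was -0.01, against 0.065 for the members.

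The older annotation M4 gave like levels for most members. The ratio of mean TPM in M21 over M4 passed 1.5 for Sema4g, at 1.59, and Nrp1, at 1.57, and for no other member. Nrp1 had 26.6 TPM in M21 and 16.9 TPM in M4 in replicate 1, and 27.7 TPM in M21 and 17.7 TPM in M4 in replicate 2, so the annotation moved it more than the pools did. Sema4g had 6.72 TPM in M21 and 4.38 TPM in M4 in replicate 1, and 6.87 TPM and 4.16 TPM in replicate 2.

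Members lie close together at several places in the genome. On chromosome 5, Sema3d and Sema3a are 536.5 kb apart with 0 protein-coding genes between them, and Sema3a and Sema3e are 423 kb apart with 1. On chromosome 9, Sema3b and Sema3f are 72.3 kb apart with 3 genes between them. Neighbours differed in level: Sema3f averaged 24.9 TPM and Sema3b 2.46 TPM, and Sema3a averaged 8.045 TPM, against 1.37 TPM for Sema3d and 1.30 TPM for Sema3e. Member genes are long, with a median span of 48.25 kb, against 17.3 kb for protein-coding genes. Exons of 4 members (Plxna1, Plxna4, Plxnb1 and Sema4c) overlap an exon on the other strand, where reads cannot be told apart without strand. The overlapping genes were assigned at most 83 reads in a library. The strand setting is not given, so that number does not limit how many reads came from the other strand.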

How the data were processed

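Per the labels, polyadenylated RNA was sequenced in 2 libraries of pooled embryonic midbrain; group, replicate number and pool size come from the labels. For each library the authors deposited gene and transcript tables against GENCODE M4 and M21 on mm10. Per the file headers, these hold the expected count, an estimated read number that need not be whole, and TPM and FPKM, scaled by effective length and depth. The deposited transcript tables give the percent of a gene's TPM per transcript. The tables also hold lower and upper bounds of TPM, a signal scale as deposited by the authors, which no result uses. The aligner, quantifier and strand setting are not given in the sources used here, although the columns carry RSEM's names.

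M21 TPM was used as given for levels, and 1 TPM in both libraries was the limit of detection. Gaps between family medians were taken on log2(TPM + 0.1), where differences of low values come out too small. For ratios, expected counts were rounded, rows naming no gene (4.02% and 3.38% of counts) were left out, TMM scaling came from edgeR 4.0.16 (R 4.3.3), and the exact conditional binomial (Clopper-Pearson) 95% interval from scipy 1.17.1. Genes needed 10 counts in a library, and 2-fold with an interval excluding equality made a call. With 1 library a pool, no dispersion or p-value was computed. Ratios and intervals were also run on simulated counts with sampling noise alone. That check shows that the calculation works. It does not cover the wider spread between the real libraries, whose chi-square averaged 8.94 per gene tested. A count of 0 was read as up to 3 counts. Expected counts of 32 of the 36 members were whole in both libraries; the others (Sema4c, Plxna1, Plxnb1 and Plxnc1) each overlap another annotated gene. DESeq2 1.42.0 size factors, spike-in and total-count scaling, other limits, M4, FPKM, leaving out each library and coding transcripts alone were tried as alternatives.

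The members, the partner and marker lists, the ligand and receptor pairs and the alternative segments were chosen with earlier results of these data known. Named members were the highest and lowest of each family, those under 1 TPM, those with the 3 largest ratios in each direction, those without a transcript at 50% or with differing leaders, and those differing 1.5-fold between annotations; others are named to complete their family. Protein sequences were not used here.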

Additional observations from a re-analysis of the deposited data

How the results depend on the processing

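No paired analysis was possible because the 2 libraries belong to 1 group. Detection of members (28 to 35 under the limits, units, annotations and libraries tried) and the number of members without a transcript at 50% (11 to 12) stayed within 1.5 times the main value. The class 3 share of semaphorin TPM was 17.7% with M4 and 17.8% on coding transcripts only (added after the data were seen). Both lay within the spread between the libraries. Leaving out a library gave 17.15% and 18.8%, which with 2 libraries cannot fall outside that spread. With a 1.5-fold limit, 1 member (Sema3g) instead of 0 differed between the pools, against 7.07% of genes. The median log2 ratio of members moved to -0.215 with ERCC scaling and stayed between 0.044 and 0.067 under the other scalings, filters and annotation. The gap of collapsin response mediators above semaphorins was 5.00 among detected members, 5.77 with M4 and 5.78 on coding transcripts only (an alternative added after the data were seen), and 5.31 to 5.635 leaving out a library. The gap of plexins and neuropilins above semaphorins was 1.10 among detected members, 1.47 with M4 and 1.45 on coding transcripts only (added likewise), and 1.19 to 1.36 leaving out a library. The cause of these shifts was not tested. No ratio of a single member passed 2-fold under any scaling, filter or annotation tried. With M4, 14 of 36 levels moved by more than the spread between the libraries, and 24 did on coding transcripts only. The median ratio of M4 over M21 was 1.048. Some of the 14 moved by little more than that, such as Dpysl3 at 1.052 and Sema5b at 1.056. Precision is limited by depth for Plxnb3, Sema7a and Sema3g, which rest on 5 to 87 reads, and by having 2 libraries for every share of a transcript.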
